A study of Mus musculus with 3 samples.

Results

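The genes described here, 10 in number, encode parts of the neuronal cytoskeleton: the neurofilament genes Nefl, Nefm, Nefh and Ina, the tubulin genes Tubb3, Tuba1a, Tubb2a and Tubb2b, and the microtubule-associated protein genes Map2 and Mapt. They were picked by symbol from a table of 24054 mouse genes, and all 10 were found in it. The cells were neurons from the cortex of embryonic day 17 C57BL/6 mice, grown in culture for 7 days, and 1 RNA library was sequenced per condition. In the hypoxia with T3 culture the cells spent 7 hours at 0.2% oxygen with T3 (triiodothyronine, the thyroid hormone that binds the nuclear receptors) added at 5 nM. The hypoxia culture had the same low oxygen for 7 hours and no added hormone, and the control culture was held at 21% oxygen. The number of animals or dishes behind a library is not given in the labels, nor is the hormone content of the control medium. The libraries held 22533574 reads for hypoxia with T3, 17118865 for hypoxia and 18081904 for control, of which the 10 genes took 1.96%, 2.05% and 2.31%.

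Neurofilaments are the intermediate filaments of axons. The light, medium and heavy chains (Nefl, Nefm, Nefh) copolymerise with alpha-internexin (Ina), which appears earlier in development than the heavy chain, and their amount sets axon calibre. Microtubules are polymers of alpha and beta tubulin dimers, and neurons make beta tubulin from several genes, of which Tubb3 encodes the isotype used as a marker of neurons. Map2 encodes a microtubule-binding protein of dendrites and cell bodies, and Mapt encodes tau, which binds axonal microtubules. Cells also adjust tubulin mRNA to the pool of free tubulin: when free dimers are plentiful, tubulin mRNAs under translation are degraded, and the signal is read from the first residues of the nascent chain.

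The first 30 coding bases of the tubulin members are shown because those residues are encoded there; capitals mark the first 12 bases, and the sequences come from GENCODE M21 transcripts on GRCm38, the assembly also called mm10.
Tubb3: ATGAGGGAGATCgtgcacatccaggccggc
Tuba1a: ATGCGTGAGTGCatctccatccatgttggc
Tubb2a: ATGCGCGAGATCgtgcacatccaggcgggc
Tubb2b: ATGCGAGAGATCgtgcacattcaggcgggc
Across these 12 bases, Tubb2a and Tubb2b each differ from Tubb3 at 2 bases, counted as bases and not as residues. The differences lie in the second codon, AGG in Tubb3, CGC in Tubb2a and CGA in Tubb2b. Each of these codons encodes arginine, so the 12 bases encode the same residues in these beta tubulin genes. Among the abundant tubulin genes outside the 10, Tubb5 differs from Tubb3 at 1 base, Tubb4a at 2 and Tubb4b at 0, while Tuba1b has 0 differences from Tuba1a.

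A pair of the genes are near copies. Tubb2a (chr13:34074274-34078007, minus strand) and Tubb2b (chr13:34126748-34130466, minus strand) differ at 47 of 1338 coding bases, an identity of 96.5%. Of adjacent windows of 60 bases counted from the first coding base, bases 121 to 180 hold the most differences, 10 of 60. They are shown with the differing bases in capitals.
Tubb2a: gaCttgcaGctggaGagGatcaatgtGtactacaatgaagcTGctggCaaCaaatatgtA
Tubb2b: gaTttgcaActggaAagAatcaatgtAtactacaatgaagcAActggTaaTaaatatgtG
Of all 31-base words in its transcripts, Tubb2a has 51.1% in common with Tubb2b, and Tubb2b has 35.2% in common with Tubb2a. Tuba1a (chr15:98949837-98953703, minus strand) shares 53.4% of its words with Tuba1b and 54.7% with Tuba1c. For these 3 genes the split of reads between copies is uncertain, so sums over the tubulin copies named here are given below as well. Words also found in any other gene made up 77.04% of Tuba1a, 56.4% of Tubb2a and 43.1% of Tubb2b. Gm6682 holds 40.1% of the Tuba1a words. Tubb2a-ps2 holds 30.6% of the Tubb2a words and also part of the Tubb2b words. The sums leave out Gm6682 and Tubb2a-ps2, so they do not fully settle the split. Tubb3 (chr8:123411424-123422015, plus strand) has 3.21% of its words in other genes and Nefm has 0.244%. For Nefl, Nefh, Ina, Map2 and Mapt the share was 0%.

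Under hypoxia the neurofilament transcripts Nefl, Nefm and Ina were higher and the beta tubulin transcript Tubb3 was lower than in control, while Nefh showed no detectable difference. Of these, Nefl and Tubb3 were about 2-fold apart. Values are normalised read counts (CPM, the authors' counts scaled to a common library size by TMM) and folds are ratios of CPM. The intervals are exact 95% intervals for counting error and hold no variation between cultures, against which nothing could be tested because each condition has 1 library, and in bulk RNA fewer cells of a type cannot be told apart from less RNA per cell. A gene was counted as 2-fold apart where the log2 ratio of CPM + 1 reached 1 in size. By that rule 1 of the 10 genes was higher in hypoxia, against 1.99% of the 12692 genes compared (those averaging 1 CPM or more over the libraries), and 1 was lower, against 4.92%. At 1.5-fold the counts were 3 higher and 1 lower, against 8.46% and 13.8% of all genes. The 3 higher genes rest on the scaling between libraries: with equal read totals 1 of them, Nefl, was 1.5-fold higher, and Nefm and Ina had log2 ratios of 0.54 and 0.50, short of that rule. By sign alone 7 of the 10 were above control and 3 below, against 54.5% and 45.5% of all genes. This count rests on the scaling too. With equal read totals Nefh, Tubb2b and Map2 moved below control, and 41.1% of all genes were above it.

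**Figure D1:**
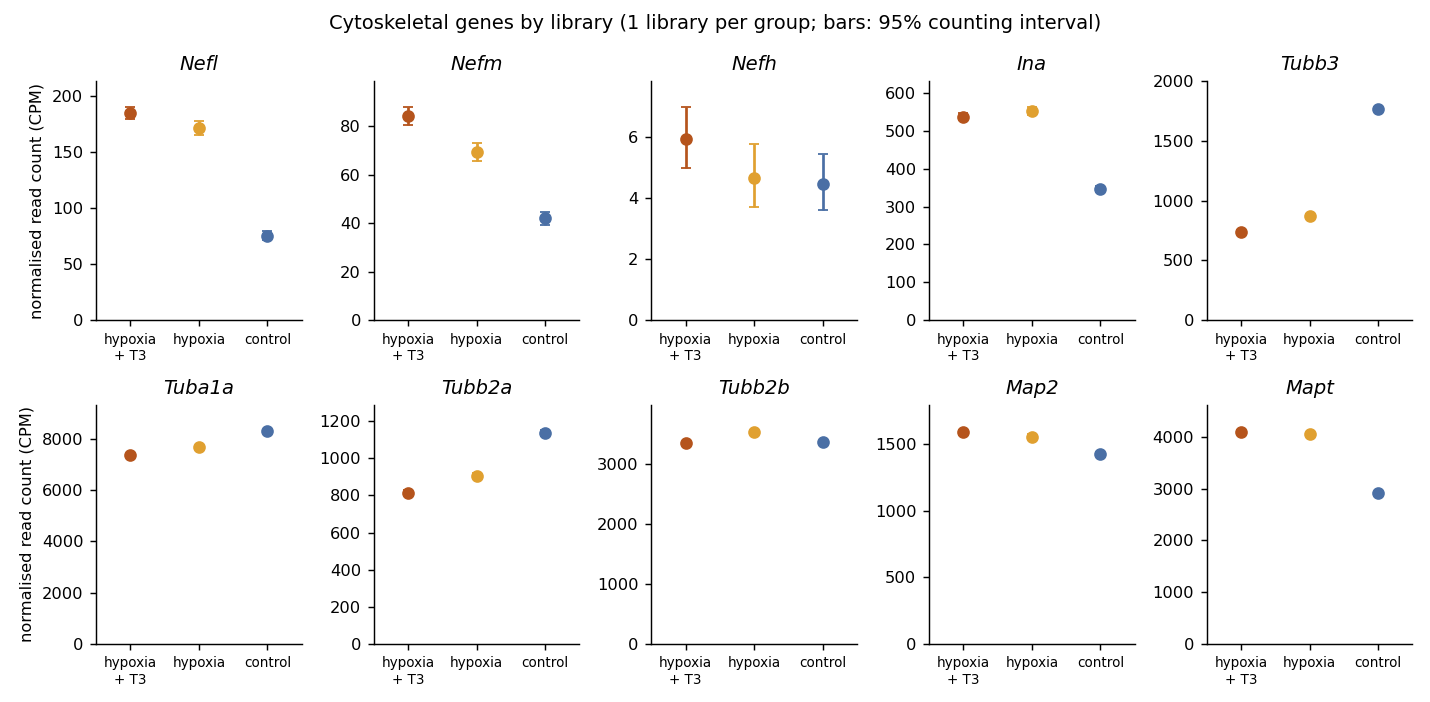
Normalised read counts (CPM, linear axes from 0) of the 10 genes in the libraries of hypoxia with T3, hypoxia and control; each point is 1 library and bars are 95% counting intervals. Nefl, Nefm, Ina and Mapt were higher in both hypoxic libraries than in control, and Tubb3 and Tubb2a were lower.

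Nefl (chr14:68083863-68089095, plus strand), the light chain that forms the core of the filament, was at 185 CPM in hypoxia with T3, 171 CPM under hypoxia alone and 75.4 CPM in control. Both hypoxic libraries were thus well above control. Hypoxia over control was 2.27-fold (2.14 to 2.41). With the libraries scaled to equal read totals its log2 ratio was 0.999, just short of the 2-fold rule, while the median of all genes moved to −0.10 from 0.05.
Nefm, the medium chain, was at 84.2 CPM in hypoxia with T3, 69.3 CPM under hypoxia alone and 41.9 CPM in control, and hypoxia over control was 1.65-fold (1.51 to 1.80). It lies beside Nefl on the other strand (chr14:68082590-68124846, minus strand), and the span of 1 of its 2 annotated transcripts overlaps Nefl. Whether their exons share bases was not examined. The libraries were strand-specific, but whether the counting used strand is not given in the sources used here. Reads from any shared exon bases could then be assigned to either gene.
Ina (chr19:47014698-47025327, plus strand), the filament protein of young neurons, was at 538 CPM in hypoxia with T3, 553 CPM under hypoxia alone and 347 CPM in control. Its ratio of hypoxia over control was 1.59 (1.55 to 1.64).
Nefh (chr11:4938754-4948064, minus strand), the heavy chain that accumulates as axons mature, was scarce, at 5.91 CPM in hypoxia with T3, 4.64 CPM under hypoxia alone and 4.45 CPM in control. These values rest on 139, 84 and 96 reads. The hypoxia over control ratio of 1.04 (0.769 to 1.41) was not a difference that this depth could show, and it was below 1 with equal read totals. Summed over the neurofilament genes, CPM was 798 in hypoxia against 469 in control, 1.70-fold (1.66 to 1.75).

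Tubb3, the neuronal beta tubulin, was at 739 CPM in hypoxia with T3, 873 CPM under hypoxia alone and 1771 CPM in control. The hypoxic libraries were both under the control value. Hypoxia was 2.03-fold lower than control (1.99 to 2.07). The log2 ratio on CPM + 1 was −1.02, and it was −1.19 with equal read totals and −1.08 with median-of-ratios scaling.
Tubb2a, a beta tubulin widely used in brain, was at 815 CPM in hypoxia with T3, 907 CPM under hypoxia alone and 1137 CPM in control. It was 1.25-fold lower in hypoxia (1.23 to 1.28).
Tubb2b, the beta tubulin of migrating and newly formed neurons, was at 3355 CPM in hypoxia with T3, 3540.5 CPM under hypoxia alone and 3366 CPM in control. Hypoxia over control was 1.05-fold (1.04 to 1.06), and the sign turned with equal read totals, at −0.10 on the log2 scale. The sum of Tubb2a and Tubb2b was 4448 CPM in hypoxia and 4503 CPM in control, a ratio of 0.988 (0.979 to 0.997).
Tuba1a, the main alpha tubulin of developing neurons, was the most abundant of the 10, at 7365 CPM in hypoxia with T3, 7674 CPM under hypoxia alone and 8299 CPM in control. It was 1.08-fold lower in hypoxia (1.07 to 1.09), and its sum with Tuba1b and Tuba1c was 1.10-fold lower (1.10 to 1.11).

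Map2 (chr1:66175273-66442583, plus strand) was at 1588 CPM in hypoxia with T3, 1555 CPM under hypoxia alone and 1429 CPM in control. Hypoxia over control was 1.09-fold (1.07 to 1.11), and the sign turned with equal read totals, at −0.05 on the log2 scale.
Mapt (chr11:104231390-104332090, plus strand) was at 4106 CPM in hypoxia with T3, 4052 CPM under hypoxia alone and 2921 CPM in control. Both hypoxic libraries stood above control, and hypoxia over control was 1.39-fold (1.37 to 1.40). The table gives 1 value per gene, so the dendritic and other isoforms among the 24 annotated Map2 transcripts, and the 12 of Mapt, cannot be told apart.

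**Figure D2:**
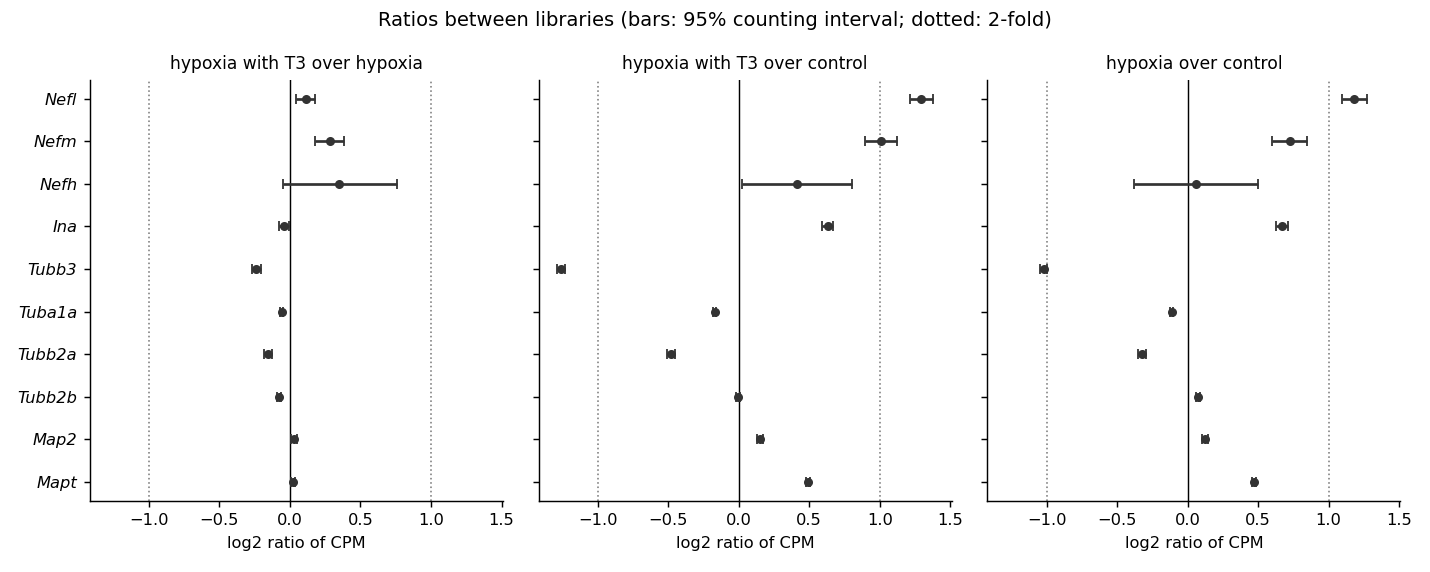
Log2 ratio of CPM for each of the 10 genes, with hypoxia with T3 over hypoxia on the left, hypoxia with T3 over control in the middle and hypoxia over control on the right; bars are 95% counting intervals and dotted lines mark 2-fold. Between the hypoxic libraries all 10 ratios lay between −0.24 and 0.35, while against control Nefl lay above 1 and Tubb3 below −1.

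Between hypoxia with T3 and hypoxia the ratios of the 10 genes were small, and Tubb3, a member below control in both hypoxic libraries, was also lower with T3 than without it. None of the 10 was 2-fold apart between hypoxia with T3 and hypoxia, where 0.126% of all genes were higher and 0.063% lower by that rule, and none was 1.5-fold apart, where 0.717% were higher and 0.276% lower. Tubb3 was 1.18-fold lower with T3 (1.16 to 1.21), Tubb2a 1.11-fold lower (1.09 to 1.14), Tubb2b 1.06-fold lower (1.04 to 1.07) and Tuba1a 1.04-fold lower (1.03 to 1.05), and the sum of Tubb2a and Tubb2b was 1.07-fold lower (1.06 to 1.08). Nefm was 1.22-fold higher with T3 (1.13 to 1.31) and Nefl 1.08-fold higher (1.03 to 1.13). The Nefh ratio of 1.27 had an interval from 0.965 to 1.69, so its reads could not show a difference. Ina was 1.03-fold lower (1.003 to 1.057). Map2 stood at 1.02-fold (1.01 to 1.04) and Mapt at 1.01-fold (1.004 to 1.023), and the sign of Mapt turned under both other scalings. The median log2 ratio was −0.01 over the 10 genes and 0.01 over all genes.

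The comparison of hypoxia with T3 and control uses the same control library as that of hypoxia and control. Tubb3 was 2.39-fold lower in hypoxia with T3 than in control (2.35 to 2.44) and Nefl was 2.45-fold higher (2.31 to 2.60). These were the single lower and the single higher gene of the 10 at 2-fold, against 4.59% and 2.06% of all genes. Nefm was 2.01-fold higher (1.86 to 2.18) but its log2 ratio of CPM + 1, at 0.99, missed the 2-fold rule. At 1.5-fold 3 of the 10 were higher and 1 lower, against 8.73% and 13.1% of all genes. With equal read totals these counts were 2 and 2, Ina being lost at 0.44 and Tubb2a added at −0.67 on the log2 scale. Ina was 1.55-fold higher (1.504 to 1.593), Mapt 1.41-fold higher (1.39 to 1.42) and Tubb2a 1.39-fold lower (1.37 to 1.42). The split of reads between Tubb2a and Tubb2b is uncertain, and their sum was 1.08-fold lower (1.07 to 1.09), at 4171 CPM in hypoxia with T3 and 4503 CPM in control. Tubb2b had a ratio of 0.997 (0.987 to 1.01), which its read depth cannot tell from 1.

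The make-up of the beta tubulin reads differed between libraries. Tubb3 took 11.6% of all beta tubulin reads in hypoxia with T3 (exact Clopper-Pearson interval 11.4 to 11.8), 12.6% in hypoxia (12.4 to 12.8) and 19.9% in control (19.7 to 20.1). Tubb5, a beta tubulin of dividing and young cells, took 17.1%, 17.5% and 23.9% in the libraries of hypoxia with T3, hypoxia and control. Tubb2b took 52.6%, 51.0% and 37.9% in that order, and it was the largest contributor in each library. Tubb2a stayed between 12.8% and 13.1%. Summed over the beta tubulin genes, CPM was 6380.0 in hypoxia with T3, 6939 in hypoxia and 8892 in control. Without Tubb3 the sum was 1.17-fold lower in hypoxia than in control (1.17 to 1.18). That sum holds Tubb5, at 1212 CPM in hypoxia and 2124 CPM in control. Tubb2a and Tubb4a were also lower in hypoxia, while Tubb2b, Tubb4b and Tubb6 were higher. Within the neurofilament reads, Nefl took 22.7% in hypoxia with T3, 21.4% in hypoxia and 16.1% in control, and Ina 66.2%, 69.3% and 74.0%.

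**Figure D3:**
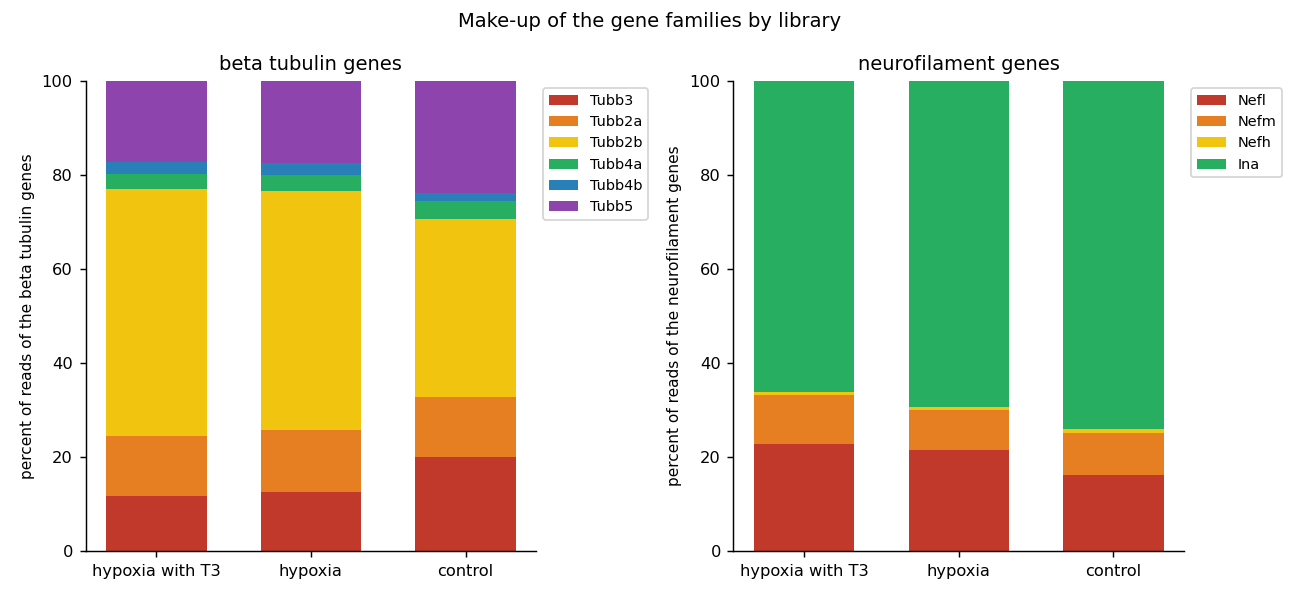
Share of each gene in the reads of the beta tubulin genes (left) and of the neurofilament genes (right), in percent, for the libraries of hypoxia with T3, hypoxia and control; Tubb6 and Tubb1 are counted but too rare to draw. Tubb3 made up 11.6%, 12.6% and 19.9% of beta tubulin reads in that order, and Nefl 22.7%, 21.4% and 16.1% of neurofilament reads.

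Levels of different genes were compared per kilobase of annotated exon. In control the order was Tuba1a at 4603 CPM per kb, Tubb2b at 1467, Tubb3 at 948, Tubb2a at 706, Mapt at 388, Ina at 107, Map2 at 86.9, Nefl at 22.3, Nefm at 7.25 and Nefh at 1.11. Tubb3 held rank 3 in control and rank 5 in both hypoxic libraries, at 396 CPM per kb in hypoxia with T3 and 467 in hypoxia, where Tubb2a and Mapt stood above it. The place of Map2 depends on the length taken, since its exons together cover 16.4 kb and its longest transcript 6.26 kb. On the longest transcript Map2 was at 228 CPM per kb in control, above Ina.

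The lower tubulin ratios were set against genes of like abundance, a comparison chosen after the values were seen. Of 226 genes averaging 500 CPM or more, Tubb3 had the lowest ratio of hypoxia over control and was the 1 gene at least 2-fold lower. Next came Tubb5 at 1212 CPM in hypoxia, against 2124 CPM in control, and then Tuba1b, a ubiquitous alpha tubulin, at 457 and 680 CPM in hypoxia and control. Tubb2a had rank 5 from the lowest and Tuba1a rank 13, while Mapt had rank 64 from the highest. The median log2 ratio of these abundant genes was 0.36, so Tubb2b at 0.07 and Map2 at 0.12 also lay under it. Between hypoxia with T3 and hypoxia the lowest of the 226 was again Tubb3, at −0.24 on the log2 scale, followed by Tubb2a and Tubb5, in ratios that share the hypoxia library with the first comparison.

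**Figure D4:**
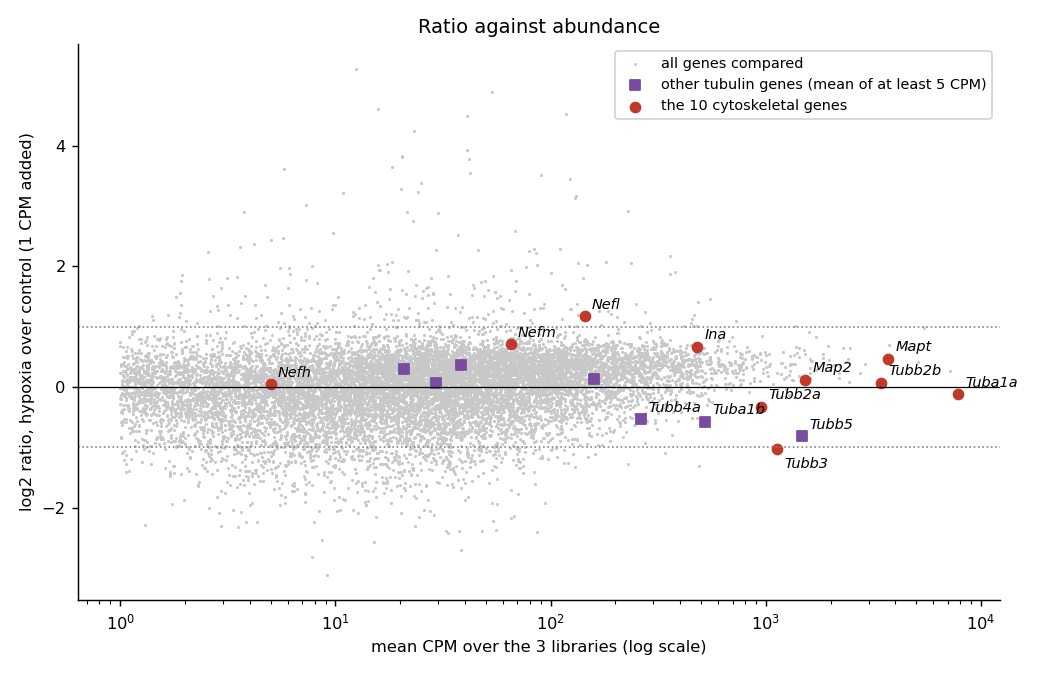
Log2 ratio of hypoxia over control (1 CPM added) against mean CPM over the 3 libraries (log axis) for 12692 genes (grey), the 10 cytoskeletal genes (red) and other tubulin genes (purple squares); dotted lines mark 2-fold. Tubb3 lies at −1.02 and Tubb5 at −0.81, below other genes of like abundance, and Nefl at 1.17.

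Gene span, the distance from first to last exon, went with the ratio in these libraries, so each of the 10 genes was placed within its span class. The median log2 ratio of hypoxia over control was 0.33 over 2954 genes under 10 kb, 0.18 over 3969 genes of 10 to 30 kb, −0.12 over 3664 genes of 30 to 100 kb and −0.35 over 1528 genes of 100 to 300 kb. Tubb3 spans 10.6 kb, and 1.21% of the genes of 10 to 30 kb had a lower ratio. Tubb2a spans 3.73 kb, and 8.26% of the genes under 10 kb had a lower ratio. For Tuba1a, which spans 3.87 kb, that share was 16.4%. Mapt spans 101 kb and had a higher ratio than 98.8% of the genes of 100 to 300 kb, and Map2, at 267 kb, a higher one than 84.6%. Nefl (5.23 kb) and Ina (10.6 kb) were higher than 96.0% and 94.1% of their classes. Nefh (9.31 kb) and Tubb2b (3.72 kb) lay under the median of the genes under 10 kb, of which 25.5% and 27.2% had a lower ratio. The 42.3 kb span of Nefm comes from 1 of its 2 transcripts, the other spanning 5.56 kb, so its class is uncertain. Mapt lies just past the 100 kb edge, and Ina and Tubb3 just past the 10 kb edge. The shares given for these genes therefore depend on where the classes were cut.

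**Figure D5:**
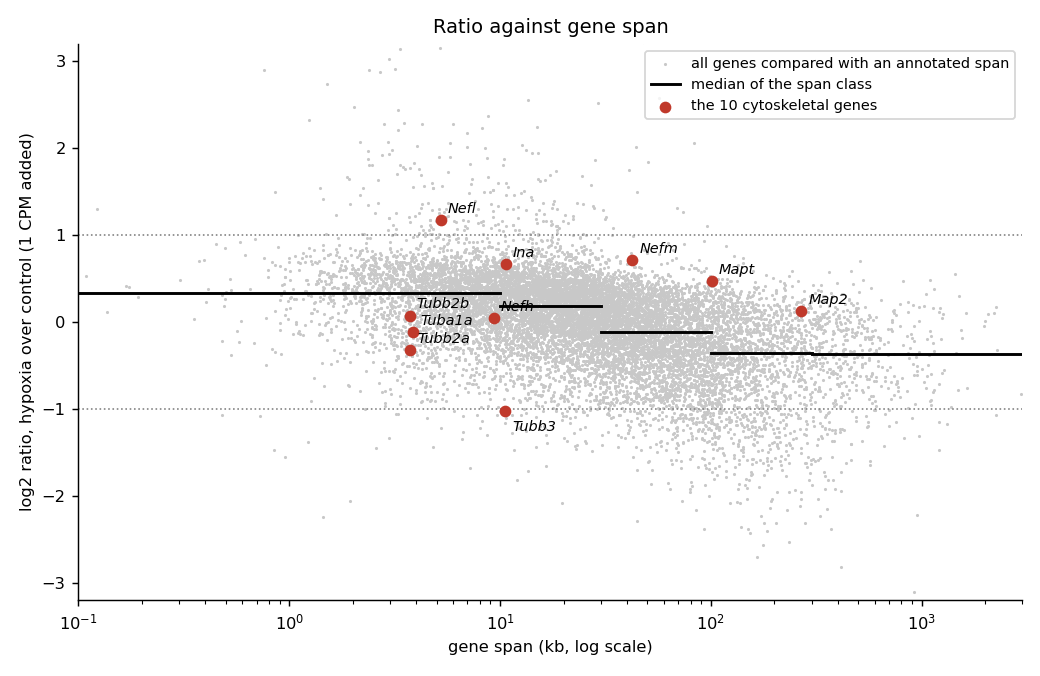
Log2 ratio of hypoxia over control (1 CPM added) against gene span in kb (log axis) for genes with an annotated span (grey), with the median of each span class (black) and the 10 cytoskeletal genes (red); 22 genes lie outside the axes. Tubb3 at −1.02 lies under the median of 0.18 of its class, and Mapt at 0.47 lies over the −0.35 of its own.

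Of the 10 genes, 5 have a promoter window (250 bases before to 50 after the start) in the RefSeq table of build GRCm38.p6. The windows of Tubb3 and Ina are printed because these genes differed from control in opposite directions. They were searched for the core letters of the hypoxia response element, ACGTG or GCGTG, on both strands, and a match is in capitals.
Tubb3 (chr8:123411303-123411602, plus strand): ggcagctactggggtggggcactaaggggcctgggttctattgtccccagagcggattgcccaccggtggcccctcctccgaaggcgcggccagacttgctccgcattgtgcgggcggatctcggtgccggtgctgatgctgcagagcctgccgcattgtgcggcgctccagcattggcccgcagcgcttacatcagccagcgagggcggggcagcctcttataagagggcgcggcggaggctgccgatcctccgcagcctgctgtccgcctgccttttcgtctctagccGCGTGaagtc
Ina (chr19:47014431-47014730, plus strand): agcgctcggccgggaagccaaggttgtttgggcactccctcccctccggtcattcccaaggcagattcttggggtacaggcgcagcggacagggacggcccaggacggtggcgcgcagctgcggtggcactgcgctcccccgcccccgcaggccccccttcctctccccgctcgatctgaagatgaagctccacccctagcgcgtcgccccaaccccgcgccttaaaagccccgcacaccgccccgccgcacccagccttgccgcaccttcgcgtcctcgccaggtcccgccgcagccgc
Tubb3 has 1 match, near the end of the window, and so does Tubb2a. Ina, Tuba1a and Map2 have 0. Of all 32851 windows, 43.8% hold at least 1 of these letter runs.

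Other genes of the pathway were taken from lists chosen with earlier results of these data known. Counts above and below 0 in these lists depend on the scaling: 54.5% of all genes lay above 0 in hypoxia as deposited, and 41.1% with equal read totals. Of 14 other tubulin genes, 10 passed the minimum of 1 CPM, and none was 2-fold apart between hypoxia and control (median log2 ratio 0.10). The 3 below 0 were Tubb5, 1.75-fold lower (1.72 to 1.78), Tuba1b, 1.49-fold lower (1.45 to 1.53), and Tubb4a, 1.44-fold lower (1.389 to 1.499). With equal read totals 6 of the 10 lay below 0, Tubb4b among them (median −0.072). Tubb4b was 1.10-fold higher (1.04 to 1.15) and Tuba4a, an alpha tubulin of mature neurons, 1.29-fold higher (1.16 to 1.44). With T3 over hypoxia, 8 of these 10 lay below 0 (median −0.08), against 45.9% of all genes, with none 1.5-fold apart.

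Among 9 genes compared from a list of other intermediate filament genes, none was 2-fold apart and 6 were above 0 (median 0.37). The list also holds Dst, which encodes a protein that links filaments and is not a filament protein itself. Dst was among those below 0. Vim, the filament of progenitors and glia, was at 209 CPM in hypoxia, against 138 CPM in control, and Lmnb1, a nuclear lamin, at 46.2 CPM in hypoxia, against 84.2 CPM in control, 1.82-fold lower (1.68 to 1.98). Gfap, the astrocyte filament, was at 13.9 CPM in hypoxia with T3, 23.7 CPM under hypoxia alone and 15.2 CPM in control, and was 1.71-fold lower with T3 than in hypoxia alone (1.48 to 1.98).

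Of 14 other structural microtubule-associated protein genes, none was 2-fold apart in hypoxia and 12 were above 0 (median 0.17), but with equal read totals 6 were (median −0.0024). Map1b, a large axonal protein, was at 7469 CPM in hypoxia, against 6248 CPM in control, 1.195-fold higher (1.187 to 1.205). The 4 stathmin genes, whose proteins bind free tubulin dimers, were all above 0 (median 0.50, and 0.33 with equal read totals), led by Stmn4 at 513 CPM in hypoxia, against 315 CPM in control, 1.63-fold higher (1.58 to 1.68). Of 7 genes listed as tubulin folding and assembly cofactors or related to them, 5 were above 0 (median 0.14). With equal read totals 3 were (median −0.031). The cofactor Tbcb was 1.46-fold higher (1.37 to 1.56). Tbcel, listed as a relative of the cofactor gene Tbce, was at 12.6 CPM in hypoxia, against 27.3 CPM in control, 2.16-fold lower (1.85 to 2.53). Of 17 tubulin modifying enzymes, Ttll7, a polyglutamylase, was at 18.2 CPM in hypoxia, against 41.1 CPM in control, 2.26-fold lower (1.99 to 2.57). Atat1, Hdac6 and the rest of that list were within 2-fold (median −0.01).

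None of 12 microtubule end-binding genes (median 0.06), 6 severing enzymes (median −0.20) or 11 kinases of tau and neurofilament (median 0.11) was 2-fold apart in hypoxia, and with equal read totals these medians were −0.11, −0.37 and −0.064. Gsk3b, a tau kinase, was 1.47-fold lower (1.43 to 1.52), and Cdk5, a kinase of tau and of neurofilament tails, 1.46-fold higher (1.36 to 1.58). Cdk5r2, an activator of Cdk5, was at 271 CPM in hypoxia with T3 and 219 CPM in hypoxia, 1.24-fold higher (1.19 to 1.29). In none of these lists was a gene 2-fold apart between hypoxia with T3 and hypoxia.

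Markers of cell types were examined beside these ratios. The 10 pan-neuronal markers summed to 4639.8 CPM in hypoxia with T3, 4553 in hypoxia and 3678 in control, and 9 of 10 were above control in hypoxia (median 0.35), among them Uchl1, 1.41-fold higher (1.38 to 1.44). With equal read totals 7 of the 10 were above control (median 0.18), the 3 below being Syt1, Elavl3 and Elavl4. Elavl4 was below control under either scaling, 1.35-fold lower as deposited (1.27 to 1.44). Oligodendrocyte lineage markers summed to 218 CPM in hypoxia with T3, 215 in hypoxia and 363 in control, with 9 of 10 below control in hypoxia. Progenitor markers summed to 149, 136 and 188 CPM in the libraries of hypoxia with T3, hypoxia and control. In hypoxia 3 of 7 were below control and 4 above, against 45.5% and 54.5% of all genes. Their median log2 ratio was 0.098, and −0.051 with equal read totals. Those below were Hes5, Mki67 and Top2a. The proliferation marker Mki67 was at 34.8 CPM in hypoxia, against 69.4 CPM in control. Among those above, Sox2 was 1.24-fold higher (1.13 to 1.36). Astrocyte markers summed to 597, 585 and 553 CPM in the same order, with 6 of 8 compared above control in hypoxia, and 4 of 8 with equal read totals. Microglia markers summed to 2.13, 1.88 and 1.76 CPM, and endothelial and mural markers to 2.68, 2.54 and 3.198 CPM. Tmem119 and Cldn5 had 0 reads in both hypoxic libraries and 1 read each in control, too few to show a difference. The part of oligodendrocyte lineage and progenitor cells in the tubulin ratios was not tested.

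In the authors' deposited table for hypoxia and control, no member had a false discovery rate below 0.05, while 85 of 13152 genes did. For Tubb3 the authors' deposited table gives a 2.12-fold lower value with a p-value of 0.0806 and a false discovery rate of 0.962, and for Nefl a 2.174-fold higher value with 0.0712 and 0.908. In the authors' deposited table for hypoxia with T3 and control, Tubb3 was 2.52-fold lower with a p-value of 0.0325 and a false discovery rate of 0.661, and Nefl 2.33-fold higher with 0.0497 and 0.807. The test behind these values, made on 1 library against 1, is not given in the sources used here.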

How the data were processed

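Strand-specific libraries (KAPA kit, per the labels' protocols) were made from total RNA. The submitters' processing notes name bcl2fastq 2.17, Bowtie2 2.1.0, RSEM 1.2.15 and mm10, without their roles. The authors deposited CPM values, with TMM scaling per the file name. In each library 100% of the values were, to within 0.01 reads, whole reads once divided by that library's step, so reads were recovered. A count of 0 allows up to 3 reads, 0.128 CPM for hypoxia with T3, 0.166 for hypoxia and 0.139 for control. The 2 deposited comparison tables hold the same reads as a signal on another scale, which was not used, a signed fold, treated as a score, and, per the file headers, a false discovery rate beside a p-value.

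No count test was run on the reads, because each group has 1 library. Ratios used log2(CPM + 1) over genes averaging 1 CPM or more. Printed folds are plain CPM ratios, and their 95% intervals come from the exact Clopper-Pearson limits of 1 library's part in the summed reads of both. No molecular identifiers were used, so reads may repeat molecules and these limits speak for counting error alone. All 10 genes are named, with up to 4 genes per other list and comparison, those with the largest ratios at a mean of at least 5 CPM; further list genes were named after their values were seen. The members and the lists were chosen with earlier results of these data known. Genes were matched to GENCODE M21 for 99.4% of those compared. The 2-fold rule and the intervals were tried on simulated counts that held counting error alone and changes larger than 2-fold. That trial held no variation between cultures, so it does not speak for the lack of replicates. Alternatives were other scalings, added values of 0.1 and 5 CPM, no filter, a 1.5-fold rule, copies summed and another length. Calculations used matplotlib 3.10.9, scipy 1.17.1, pandas 2.3.3 and numpy 2.4.6 under Python 3.11.15.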

Additional observations from a re-analysis of the deposited data

How the results depend on the processing

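Of the 129 alternative values of single genes, 7 changed sign, in Nefh, Tubb2b, Map2 and Mapt, and none of the 2-fold genes did. With equal read totals the count of genes 2-fold higher in hypoxia than in control was 0 in place of 1, and the median log2 ratio of the 10 genes was −0.073 in place of 0.10, and 0.070 in place of 0.25 for hypoxia with T3 over control. The median of all genes moved to −0.10 as well. With 0.1 CPM added, the count of genes higher in hypoxia with T3 than in control was 2 in place of 1. The 1.5-fold rule gave 3 higher genes in each comparison with control. Under scalings added to that rule after the data were seen, equal read totals gave 1 higher gene for hypoxia over control, and 2 higher and 2 lower in place of 3 and 1 for hypoxia with T3 over control, where median-of-ratios scaling also gave 2 higher. Over all genes, the counts 2-fold higher and lower in hypoxia were 252 and 624, and with equal read totals 188 and 952. The other counts of the 10 genes stayed within 1.5 times under every alternative run. The level of Map2 per kb was 2.63 times as high on the longest transcript. No paired analysis was possible because each group has 1 library. Read depth limits Nefh, and the lack of replicates limits every ratio.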
